A study of Mus musculus with 12 samples.

Results

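The genes described here are the core of the mammalian response to DNA double-strand breaks: the proteins that sense and signal a break, the checkpoint kinases, the enzymes that trim and unwind broken ends, the factors of homologous recombination and of end joining, and members of the Fanconi anaemia pathway. They were taken as a list of 41 gene symbols, and 40 of the 41 have a row in the deposited tables, out of 22878 gene symbols. The listed symbol Claspn has no row. The mouse gene Clspn, which encodes claspin, has one and is given separately without being counted. Each gene is represented by its longest transcript model.

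The data are 12 polyA RNA libraries of mouse embryonic stem (ES) cells and of cells differentiated from them. SUV420H1/H2 DKO cells are labelled as lacking both SUV420H1 and SUV420H2, SUV420H2 KO cells as lacking SUV420H2, and WT cells carry neither knockout. Each genotype had 2 ES libraries and 1 library each at day 8 and day 12 of differentiation. All ES cells were grown on gelatin with 1.5 µM of a GSK3 inhibitor and passaged until feeder cells were gone. The ES line, the number of clones behind each knockout and the differentiation method are not given in the sources used here. Nor do the labels state if the paired ES libraries are separate cultures, so p-values of ES comparisons measure the spread between these libraries, which may be technical. No genotype and day of differentiation has a replicate. In comparisons with differentiated libraries, the spread behind p-values therefore also holds differences that the fit leaves out, such as day changes that differ by genotype.

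A broken chromosome is first bound by the MRN complex of Mre11a, Rad50 and Nbn, which recruits the kinase Atm. Atm phosphorylates the histone variant H2afx, Mdc1 binds the phosphorylated histone, and the ubiquitin ligases Rnf8 and Rnf168 then mark the surrounding chromatin for Trp53bp1, whose tudor domain reads methylated H4K20, the residue that the SUV420H enzymes methylate. Trp53bp1 and its effector Rif1 hold back end trimming and favour end joining, whereas Brca1 and Rbbp8 (CtIP) favour trimming and recombination, and ES cells, which spend much of their cycle in S phase, are known to rely heavily on recombination.

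Levels are given as normalised RPKM, read counts divided by transcript length and by the TMM-scaled number of reads in genes, so that genes can be compared per length. Reads in genes ranged from 22542052 to 26677968 per library, and all 40 genes passed the filter of at least 1 deposited RPKM in at least 2 libraries of every comparison. The fewest reads of any of them in a library were 37, for Nhej1. Suv420h2 was at 10.4 and 6.64 normalised RPKM in DKO ES libraries and 8.57 and 7.76 in KO ES libraries, against 54.4 and 49.3 in WT ES libraries. Suv420h1 was at 9.83 and 11.4 in DKO ES libraries against 7.20 and 8.00 in WT ES libraries, and since reads were counted over whole transcripts, a deleted exon would not show in them and the label is not checked for this gene. The ES replicates differed by more than sampling noise, with chi-square values per degree of freedom of 36.1 (DKO), 14.9 (KO) and 3.93 (WT).

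In WT ES cells the mean level of the 40 genes ran over more than 2 orders of magnitude, with a median of 13.2 normalised RPKM. H2afx was highest at 488 normalised RPKM, and Parp1, a nick and break sensor that builds poly(ADP-ribose) chains, followed at 231 and 233 in its 2 libraries. The kinase gene Prkdc, whose product DNA-PKcs is held at the break by Ku, was lowest with a mean of 2.18 normalised RPKM, and the ligation factors Xrcc4 (2.84 and 2.49) and Nhej1 (4.10 and 2.87) were also low. The map of all 40 genes shows each library relative to the WT ES mean.

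**Figure D1:**
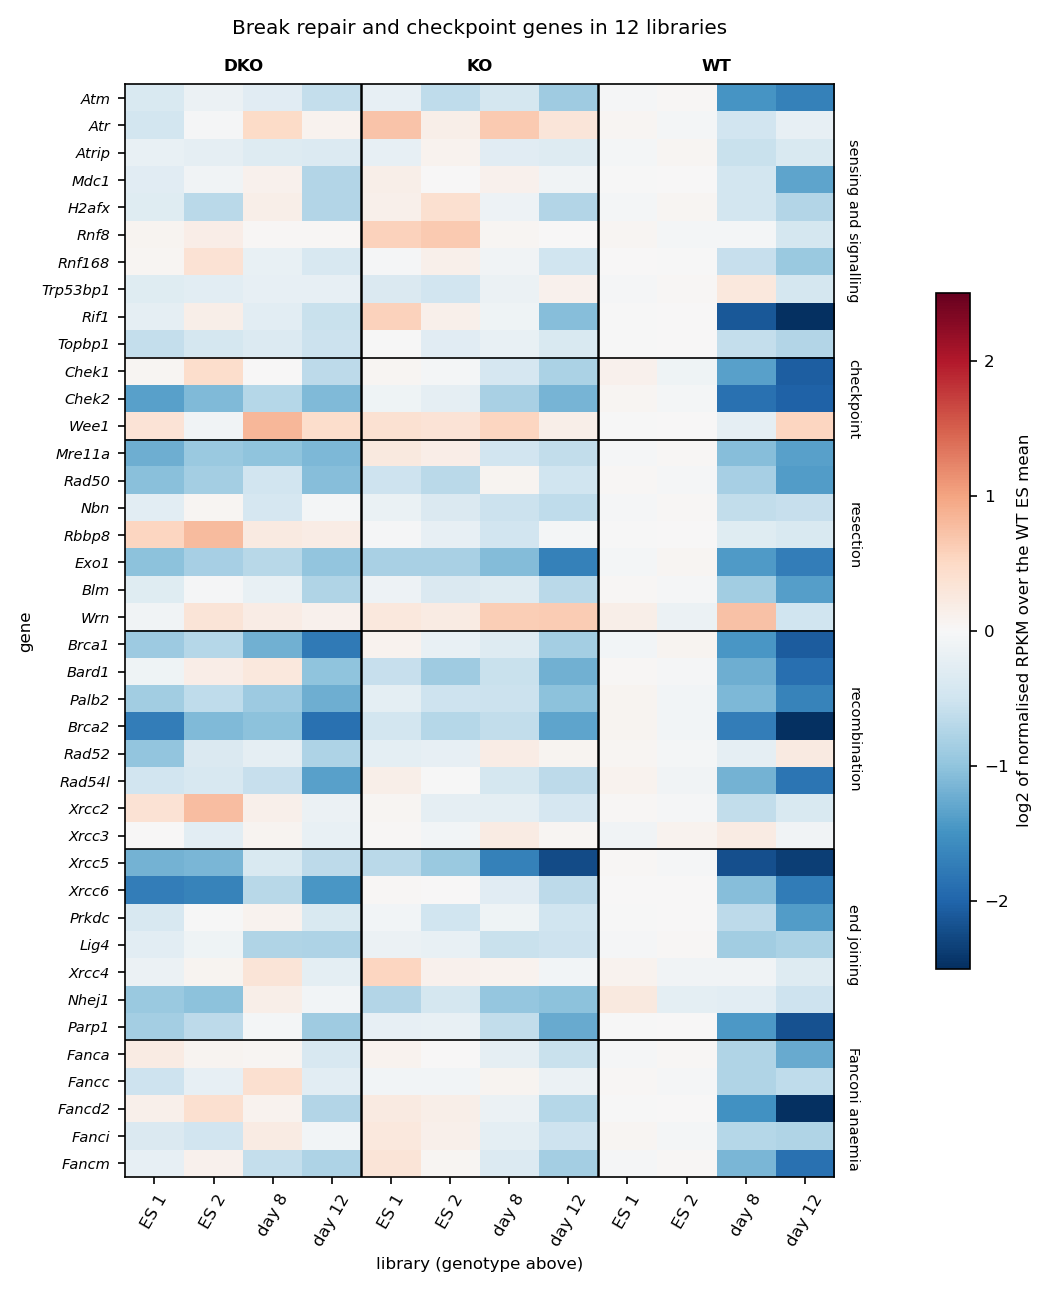
Log2 of normalised RPKM of the 40 genes (rows, grouped by role) in the 12 libraries (columns, by genotype and stage), relative to the mean of the WT ES libraries, with an offset of 0.1 before the logarithm. Blue marks a lower and red a higher level; the WT day 8 and day 12 columns hold most of the deep blue cells, and the Xrcc6, Chek2 and Brca2 rows are blue in the DKO ES columns.

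In KO ES cells 8 of the 40 genes differed from WT ES cells, 6 lower and 2 higher, at an adjusted p under 0.05 in edgeR's quasi-likelihood test over all genes. Of all genes tested, 19.2% were lower and 23.5% higher in this comparison, so the share of these genes that was lower (15.0%) was below and the share that was higher (5.0%) well below that of all genes. Over the 40 genes the median log2 fold change was -0.06, against -0.01 over all genes. In bulk RNA, fewer cells of a type and less RNA per cell cannot be told apart, here or in any later comparison.

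Exo1, the exonuclease that extends resected ends, was at 12.6 and 12.6 normalised RPKM in KO ES libraries, against 21.3 and 22.9 in WT (log2 fold change -0.80, SE 0.12, edgeR adjusted p = 0.00017). Xrcc5, which encodes the Ku80 subunit of the ring that caps broken ends, was at 26.7 and 22.5 in KO libraries, against 43.4 and 42.0 in WT (log2 fold change -0.79, SE 0.12, adjusted p = 0.00028). Bard1, the obligate partner of Brca1, was at 13.6 and 11.0 in KO libraries, against 20.7 and 20 in WT (log2 fold change -0.72, SE 0.14, adjusted p = 0.0012). In all 3 genes both KO libraries lay below both WT libraries. These 3 genes lie on chromosome 1, whose 647 tested genes had a median log2 fold change of -0.57 in KO ES cells and were lower in 59.4% of cases; the part of that shift in their result was not tested. Nhej1 and Parp1, also on chromosome 1, did not pass the test, with log2 fold changes of -0.61 (SE 0.33) and -0.18 (SE 0.11).

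Outside chromosome 1, Rad50, the zinc-hook subunit of MRN, was at 20.4 and 18.4 normalised RPKM in KO ES libraries, against 29.9 and 29.0 in WT (log2 fold change -0.59, SE 0.12, edgeR adjusted p = 0.0016). Brca2, a mediator of homologous recombination, was at 9.28 and 7.78 in KO libraries, against 13.5 and 12.2 in WT (log2 fold change -0.58, SE 0.18, adjusted p = 0.019). Trp53bp1 was at 12.8 and 11.8 in KO libraries, against 16.2 and 16.9 in WT (log2 fold change -0.41, SE 0.11, adjusted p = 0.0098). The KO libraries of all 3 genes were again below both WT libraries. The genes that were higher were Rnf8, at 35.0 and 37.2 in KO libraries against 24.3 and 22.7 in WT (log2 fold change 0.63, SE 0.12, adjusted p = 0.0011), and Wee1, the kinase that holds Cdk1 inactive until mitosis, at 60.1 and 58.3 against 45.3 and 46.4 (log2 fold change 0.38, SE 0.14, adjusted p = 0.045). Brca2 missed the threshold without WT replicate 1 or either KO replicate (adjusted p from 0.06 to 0.21), Trp53bp1 without either WT replicate or KO replicate 2 (0.073 to 0.13), and Wee1 in limma (0.14) and without any single WT or KO replicate (0.13 to 0.21). The count of changed genes was 5 without WT replicate 1 and 13 without either DKO replicate. Here and below, leaving out a library changes the residual degrees of freedom for all genes. The share of all genes called in such fits is not given. Such counts therefore describe how stable a call is, and are not set against all genes.

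DKO ES cells differed from WT ES cells in 19 of the 40 genes, 17 lower and 2 higher. The lower genes made up 42.5% of the 40, against 31.6% of all genes tested, and the higher ones 5.0%, against 32.2% of all genes. The 40 genes had a median log2 fold change of -0.22, against -0.01 over all genes. By role, the lower genes were 3 of the 10 sensing and signalling genes, 1 of the 3 checkpoint kinases, 3 of the 7 resection genes, 5 of the 8 recombination genes, 4 of the 7 end-joining genes and 1 of the 5 Fanconi anaemia genes.

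The end-joining group held the largest fall. Xrcc6, which encodes Ku70, the partner of Ku80, was at 8.11 and 8.48 normalised RPKM in DKO ES libraries, against 27.2 and 27.2 in WT (log2 fold change -1.71, SE 0.13, edgeR adjusted p = 3e-07). Its KO ES libraries were at 27.7 and 27.6, beside the WT values. Xrcc5 was at 18.7 and 19.3 in DKO libraries, against 43.4 and 42.0 in WT (log2 fold change -1.16, SE 0.12, adjusted p = 6.5e-06). Both Ku subunits were therefore lower in DKO ES cells. Nhej1 (XLF), which bridges the ends for ligation, was at 1.76 and 1.65 in DKO libraries, against 4.10 and 2.87 in WT (log2 fold change -1.02, SE 0.34, adjusted p = 0.019), on few reads, and missed the threshold without WT replicate 1 (adjusted p = 0.19) or DKO replicate 2 (0.065). Parp1 was at 129 and 148 in DKO libraries, against 231 and 233 in WT (log2 fold change -0.74, SE 0.11, adjusted p = 8.7e-05). Pppde2, which overlaps Xrcc6 on the opposite strand, was at 16.3 and 17.8 in DKO libraries, against 25.0 and 24.1 in WT (log2 fold change -0.52, SE 0.12, adjusted p = 0.003). No source used here gives whether reads were counted by strand, so reads of this pair cannot be told apart.

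Among recombination and checkpoint genes, Brca2 was at 3.78 and 5.96 normalised RPKM in DKO ES libraries, against 13.5 and 12.2 in WT (log2 fold change -1.39, SE 0.18, edgeR adjusted p = 3.2e-05). Chek2, the checkpoint kinase that Atm activates, was at 7.03 and 8.50 in DKO libraries, against 18.9 and 17.7 in WT (log2 fold change -1.23, SE 0.15, adjusted p = 1.5e-05). In both genes the higher DKO library was at less than the lower WT library. Palb2, which ties Brca1 to Brca2, and Brca1 itself also fell, with log2 fold changes of -0.75 (SE 0.15) and -0.81 (SE 0.13).

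Of the resection genes, Mre11a, the nuclease of MRN, was at 5.82 and 7.14 normalised RPKM in DKO ES libraries, against 13.3 and 14 in WT (log2 fold change -1.07, SE 0.14, edgeR adjusted p = 3.7e-05). Rad50 was at 14.2 and 16.3 in DKO libraries, against 29.9 and 29.0 in WT (log2 fold change -0.95, SE 0.12, adjusted p = 2.5e-05). Exo1 was at 10.8 and 12.3 in DKO libraries, against 21.3 and 22.9 in WT (log2 fold change -0.93, SE 0.12, adjusted p = 2.6e-05). The MRN subunit Nbn did not pass the test. It was at 7.13 and 8.84 in DKO libraries, against 8.39 and 8.66 in WT (log2 fold change -0.09, SE 0.16). Rbbp8, which starts resection together with MRN, went the other way, at 9.55 and 11.5 in DKO libraries against 6.59 and 6.60 in WT (log2 fold change 0.68, SE 0.15, adjusted p = 0.0015). The second gene that rose was Xrcc2, a recombination factor, with a log2 fold change of 0.58 (SE 0.16, adjusted p = 0.0062). Rad50 and Brca1 lie on chromosome 11, whose 1040 tested genes had a median log2 fold change of -0.40 in DKO ES cells and were lower in 51.1% of cases; the part of that shift was not tested. Rbbp8 lies on chromosome 18, whose 308 tested genes had a median of 0.21 and were higher in 40.9% of cases, and the part of this shift was not tested either. Chromosome 1, which carries Exo1, Xrcc5, Nhej1 and Parp1, had a median of 0.12 in this comparison. Without DKO replicate 1, 5 of the 40 genes were higher.

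**Figure D2:**
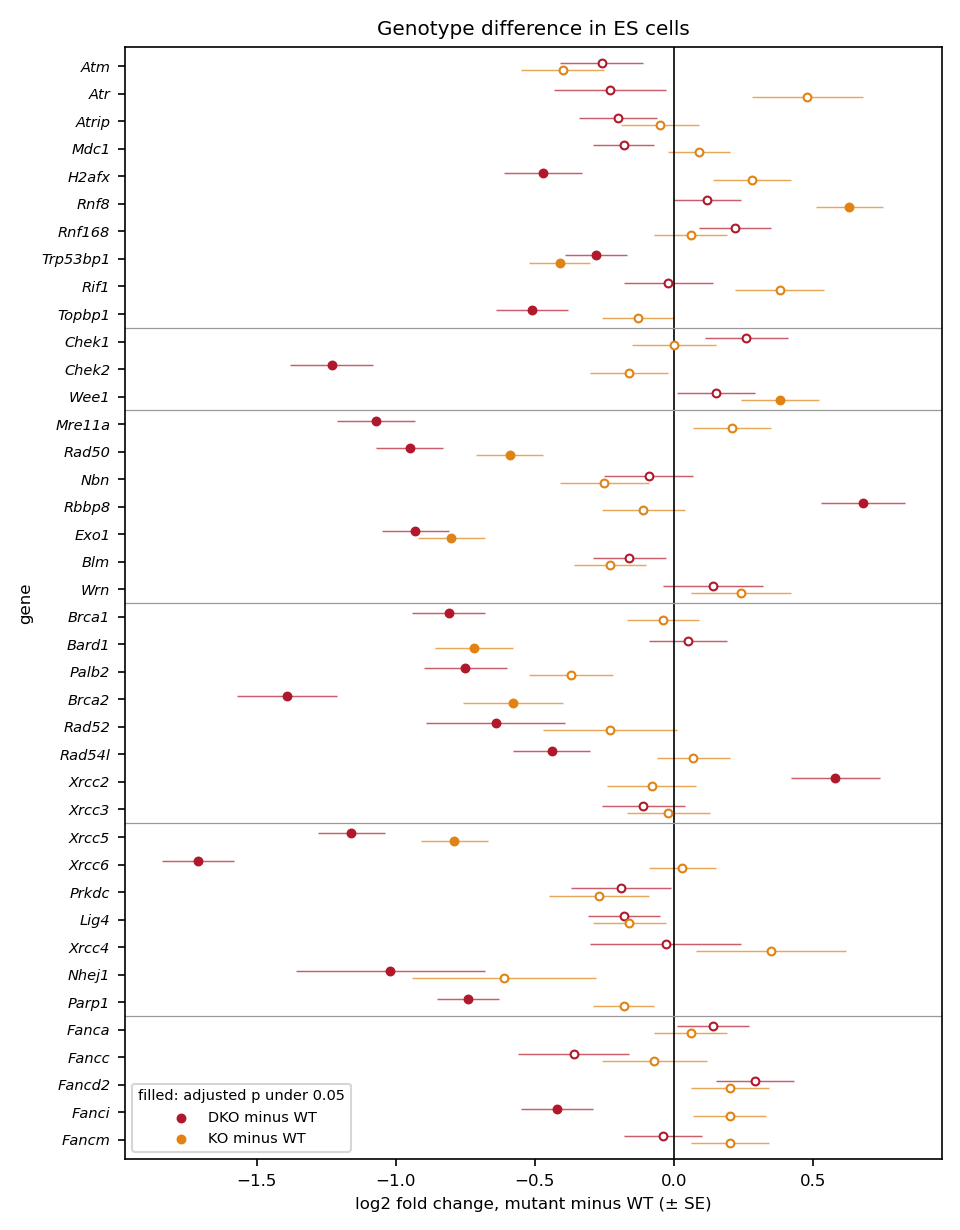
Log2 fold change (± SE) of each of the 40 genes in DKO (red) and KO (orange) ES cells relative to WT ES cells, from edgeR on 2 libraries per genotype; filled points have an adjusted p under 0.05. Xrcc6 lies at -1.71 in DKO and 0.03 in KO, while Exo1 lies at -0.93 and -0.80.

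The DKO and KO comparisons share their WT libraries, so DKO and KO ES cells were also compared directly. Here 16 of the 40 genes were lower and 3 higher in DKO ES cells, 40% and 7.5%, against 34.0% and 33.2% of all genes tested. The median log2 fold change of the 40 genes was -0.28, against -0.02 over all genes. Xrcc6 (log2 fold change -1.74, SE 0.13, edgeR adjusted p = 1.9e-07), Mre11a (-1.28, SE 0.14, adjusted p = 6.8e-06), Chek2 (-1.07, SE 0.15, adjusted p = 3.7e-05) and Brca2 (-0.81, SE 0.18, adjusted p = 0.0017) were lower in DKO than in KO ES cells. Mre11a was at 5.82 and 7.14 normalised RPKM in DKO libraries against 16.3 and 15.3 in KO, and Chek2 at 7.03 and 8.50 against 17.0 and 15.7. Brca1 was at 18.7 and 21.4 in DKO libraries, against 37.4 and 31.0 in KO (log2 fold change -0.77, SE 0.13, adjusted p = 0.00021). H2afx was at 397 and 304 in DKO libraries, against 535 and 648 in KO (log2 fold change -0.76, SE 0.14, adjusted p = 0.00048). Rbbp8 was at 9.55 and 11.5 in DKO libraries, against 6.47 and 5.69 in KO (log2 fold change 0.79, SE 0.15, adjusted p = 0.00048). Bard1 was at 18.9 and 23.0 in DKO libraries, against 13.6 and 11.0 in KO (log2 fold change 0.77, SE 0.14, adjusted p = 0.00035), while its partner Brca1 was lower. The genes of chromosome 1, where Bard1 lies, had a median log2 fold change of 0.72 between DKO and KO ES cells, those of chromosome 11, where Brca1 lies, of -0.56, and those of chromosome 18, where Rbbp8 lies, of 0.27; the part of these shifts was not tested. Exo1 did not differ beyond its error between DKO and KO ES cells (log2 fold change -0.12, SE 0.12). The lower genes numbered 10 without KO replicate 1, and the higher genes 5 without DKO replicate 1 and 2 without KO replicate 2.

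The labelled cell type was checked in the ES libraries with 8 ES cell markers, 25 proliferation markers and 8 fibroblast markers. All ES libraries carried the ES markers, with summed levels of 3570 to 3950 normalised RPKM in DKO, 4330 to 4610 in KO and 5030 to 5120 in WT. Of the 8, 3 were higher and 4 lower in DKO than in WT ES cells, and 2 higher and 4 lower in KO. The sums cover unlike levels of single markers. Zfp42 (Rex1) was at 168 in both DKO libraries and at 130 and 150 in KO, against 1430 and 1350 in WT. Nanog was at 151 and 133 in DKO and at 831 and 798 in KO, against 288 and 306 in WT. Esrrb, Klf4 and Tfcp2l1 lay above WT in DKO and below it in KO. Esrrb was at 572 and 585 in DKO and at 262 and 280 in KO, against 337 and 342 in WT. Klf4 was at 610 and 420 in DKO and at 181 and 178 in KO, against 241 and 237 in WT. Tfcp2l1 was at 326 and 375 in DKO and at 77.3 and 68.8 in KO, against 137 and 141 in WT. The proliferation markers summed to 1750 to 1830 in DKO, 1690 to 1790 in KO and 1610 to 1620 in WT. Relative to WT, 9 of 25 were higher and 7 lower in DKO (36% and 28%). In KO 5 were higher and 3 lower (20% and 12%). Of all genes, 32.2% were higher and 31.6% lower in DKO, and 23.5% and 19.2% in KO. The 8 fibroblast markers summed to 292 to 299 in DKO, 89.5 to 101 in KO and 191 to 194 in WT ES libraries, of which Fn1 (fibronectin) gave 298 and 290 in DKO, 90.3 and 75.7 in KO and 185 and 183 in WT. Thy1 was at 1.16 and 1.55 in DKO and at 10.5 and 13.3 in KO, against 8.47 and 8.15 in WT. The other 6 markers were near 0 in all ES libraries, with Col1a1 the highest at no more than 0.361. The part of these marker differences in the values of the 40 genes was not tested.

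Across genotypes, differentiated cells were lower than ES cells in 13 of the 40 genes and higher in none, 32.5% and 0.0%, against 15.7% and 20.1% of all genes tested. Over the 40 genes the median log2 fold change was -0.42, against 0.02 over all genes. This comparison pooled 6 differentiated and 6 ES libraries with genotype as a term. Day, and the difference between genotypes in the change, were not terms, so both add to its spread. Rif1 ran from 8.12 (median 28.9) to 46.6 normalised RPKM in differentiated libraries and from 42.7 (median 52.2) to 74.5 in ES libraries (log2 fold change -1.19, SE 0.32, edgeR adjusted p = 0.019). Fancd2, which is monoubiquitinated at crosslinks, ran from 0.882 to 6.15 in differentiated libraries and from 5.75 to 7.66 in ES libraries (log2 fold change -1.04, SE 0.31, adjusted p = 0.027). Fancm, the translocase that recruits the Fanconi core complex, ran from 3.64 to 10.8 in differentiated libraries and from 11.8 to 16.9 in ES libraries (log2 fold change -0.96, SE 0.19, adjusted p = 0.0053). Of these, Fancm alone had no overlap between the groups. Brca1 (-0.96, SE 0.23, adjusted p = 0.012), Chek1, the kinase that Atr activates (-0.94, SE 0.24, adjusted p = 0.015), Rad54l, a DNA motor of recombination (-0.85, SE 0.22, adjusted p = 0.015), Palb2 (-0.70, SE 0.21, adjusted p = 0.03) and Mre11a (-0.66, SE 0.20, adjusted p = 0.025) were the other named genes. Clspn, which is not one of the 40, fell by 0.69 (SE 0.17, adjusted p = 0.013). The count was 7 without WT ES replicate 1, WT ES replicate 2 or the WT day 8 library, 8 without the KO day 12 library and 21 without the DKO day 8 library. Rif1 missed the threshold without the WT day 8 library (adjusted p = 0.054), Fancd2 without WT ES replicate 1 or 2, the WT day 8 library or the KO day 12 library (0.054 to 0.064), and Palb2 and Mre11a without those or KO ES replicate 1 (0.052 to 0.071), Mre11a also without the WT day 12 library.

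Within genotypes the fall was widest in WT. In WT cells 29 of the 40 genes were lower after differentiation and none higher, 72.5% and 0.0%, against 29.8% and 31.2% of all genes tested. In KO cells 15 were lower and 1 higher, 37.5% and 2.5%, against 13.5% and 15.8% of all genes. In DKO cells 4 were lower and 3 higher, 10% and 7.5%, against 9.22% and 10.4% of all genes, so both DKO shares were near those of all genes. The 40 genes had a median log2 fold change of -0.03 in DKO, -0.36 in KO and -0.95 in WT, where those of all genes were 0.01, 0.02 and 0.02. The days of a genotype have 1 library each and stand for differentiated cells together, with day as a term.

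In WT cells the genes that fell were 7 of 10 sensing genes, 2 of 3 checkpoint kinases, 5 of 7 resection genes, 5 of 8 recombination genes, 5 of 7 end-joining genes and 5 of 5 Fanconi anaemia genes. Rif1 was at 11.5 (day 8) and 8.12 (day 12) normalised RPKM in differentiated WT cells, against 49.7 and 50.1 in WT ES cells (log2 fold change -2.37, SE 0.23, edgeR adjusted p = 8.6e-05). Xrcc5 was at 9.17 and 8.26 in differentiated WT cells, against 43.4 and 42.0 in WT ES cells (log2 fold change -2.29, SE 0.16, adjusted p = 2.7e-05). Brca2 was at 3.83 and 1.96 in differentiated WT cells, against 13.5 and 12.2 in WT ES cells (log2 fold change -2.23, SE 0.22, adjusted p = 0.0001). All 3 were lower on both days than in either ES library. Fancd2 was at 1.96 and 0.882 in differentiated WT cells, against 5.75 and 5.82 in WT ES cells (log2 fold change -2.12, SE 0.20, adjusted p = 8.6e-05). The 11 genes that did not pass were Atr, Rnf8, Trp53bp1, Wee1, Rbbp8, Wrn, Rad52, Xrcc2, Xrcc3, Xrcc4 and Nhej1, with log2 fold changes from -0.50 (Xrcc2) to 0.21 (Wee1).

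In KO cells Xrcc5 was at 13.2 (day 8) and 9.02 (day 12) normalised RPKM in differentiated cells, against 26.7 and 22.5 in KO ES cells (log2 fold change -1.16, SE 0.15, edgeR adjusted p = 0.0021). Rif1 was at 46.6 and 24 in differentiated KO cells, against 74.5 and 54.3 in KO ES cells (log2 fold change -0.94, SE 0.22, adjusted p = 0.016), and its day 8 value lay near the lower ES value. Chek2 was at 10.4 and 8.11 in differentiated KO cells, against 17.0 and 15.7 in KO ES cells (log2 fold change -0.83, SE 0.17, adjusted p = 0.011). Fancm was at 10.8 and 7.51 in differentiated KO cells, against 16.9 and 14 in KO ES cells (log2 fold change -0.78, SE 0.18, adjusted p = 0.015). The gene that rose in KO cells was Rad50, at 30.7 and 20.7 in differentiated cells against 20.4 and 18.4 in ES cells (log2 fold change 0.38, SE 0.12, adjusted p = 0.049). The count in KO cells was 2 without KO ES replicate 1, 4 without KO ES replicate 2, 3 without the KO day 12 library, 10 without either WT ES replicate or the KO day 8 library, and 6 in limma. In limma 16.7% to 18.1% of all genes were higher and 9.45% to 9.5% lower. Rif1 missed the threshold without KO ES replicate 1 (adjusted p = 0.11) or the KO day 12 library (0.13), Chek2 without either KO ES replicate or the KO day 12 library (0.057 to 0.071), and Fancm without KO ES replicate 1 or the KO day 12 library (0.079 to 0.085) and in limma (0.063 to 0.066).

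In DKO cells, where the shares of called genes were near those of all genes, the Ku genes went the other way. Xrcc5 was at 32.8 (day 8) and 27.1 (day 12) normalised RPKM in differentiated DKO cells, against 18.7 and 19.3 in DKO ES cells (log2 fold change 0.65, SE 0.15, edgeR adjusted p = 0.021). Xrcc6 was at 16.7 and 9.83 in differentiated DKO cells, against 8.11 and 8.48 in DKO ES cells (log2 fold change 0.63, SE 0.15, adjusted p = 0.025). Its day 12 value lay nearer to the ES values than its day 8 value. Fanci, the partner of Fancd2, rose as well (log2 fold change 0.49, SE 0.14, adjusted p = 0.048). Brca1 was at 15.3 and 10.3 in differentiated DKO cells, against 18.7 and 21.4 in DKO ES cells (log2 fold change -0.67, SE 0.14, adjusted p = 0.015), and Fancm at 8.96 and 7.92 against 11.8 and 14.5 (log2 fold change -0.63, SE 0.18, adjusted p = 0.043). Rnf168 (-0.51, SE 0.14) and Lig4, the end-joining ligase (-0.58, SE 0.14), fell too. The count in DKO cells was 11 in DESeq2, 8 lower and 3 higher, against 13.7% lower and 14.6% higher of all genes in that fit, and 4 in limma. In limma 6.94% to 6.99% of all genes were lower and 10.6% to 11.2% higher. The count in DKO cells was 1 without either WT ES replicate, 3 without KO ES replicate 1 or DKO ES replicate 1, 2 without KO ES replicate 2 or the DKO day 12 library, 0 without DKO ES replicate 2 or the DKO day 8 library, and 11 without the WT day 8 or the WT day 12 library. Brca1 missed the threshold without DKO ES replicate 2, the DKO day 8 or the DKO day 12 library (adjusted p from 0.068 to 0.096), and Xrcc5 without either WT ES replicate or any single DKO library (0.056 to 0.1). Xrcc6 missed it without either WT ES replicate, KO ES replicate 2, either DKO ES replicate or the DKO day 8 library (0.052 to 0.12), and Fancm in limma (0.11) and without any single ES library or the DKO day 8 library (0.058 to 0.25).

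**Figure D3:**
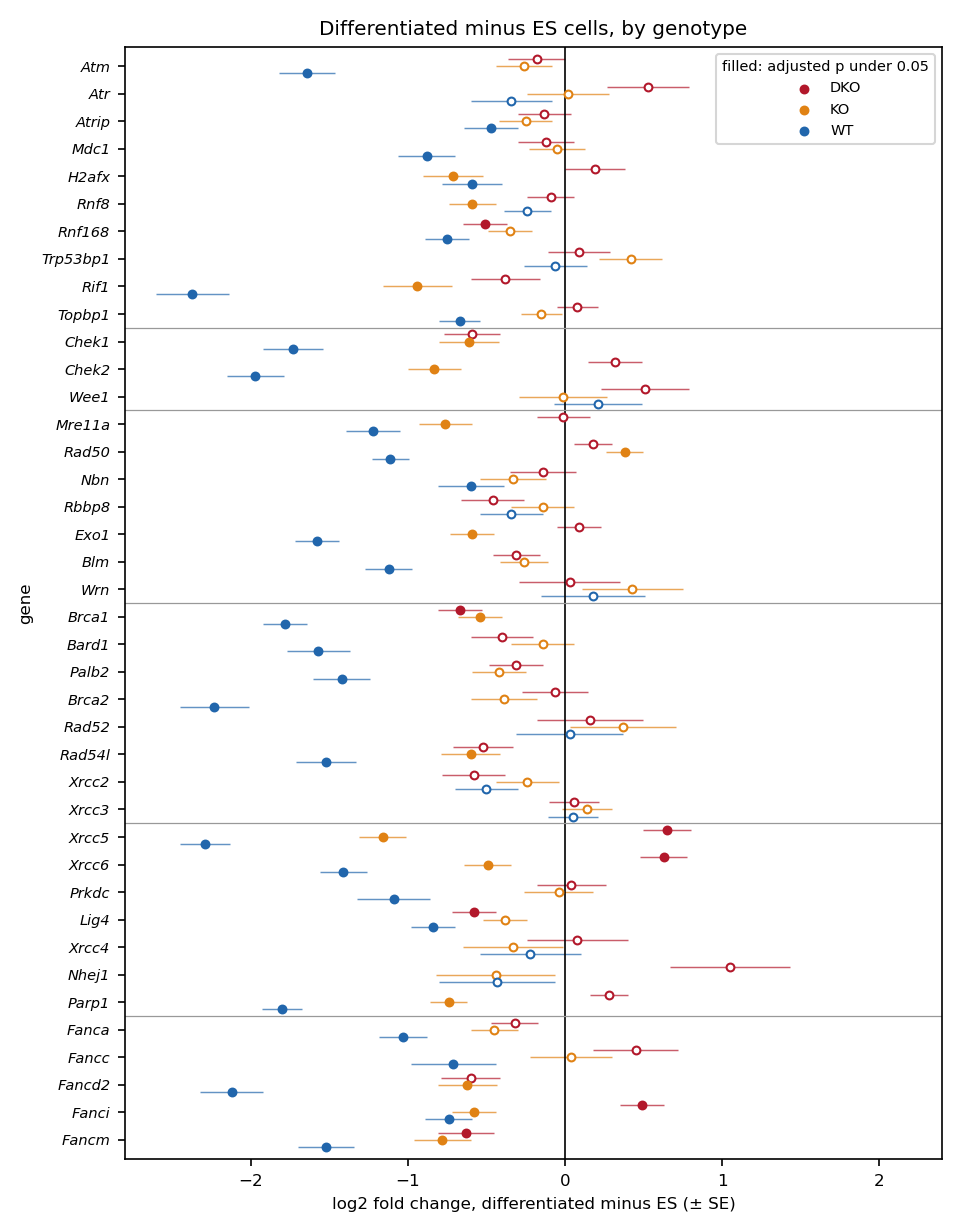
Log2 fold change (± SE) of each of the 40 genes in differentiated relative to ES cells within DKO (red), KO (orange) and WT (blue), from edgeR on all 12 libraries; filled points have an adjusted p under 0.05. The blue points reach -2.37 (Rif1), while Xrcc5 and Xrcc6 lie at 0.65 and 0.63 in DKO.

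The difference between genotypes in these changes was tested directly as an interaction, the change in the mutant minus the change in WT. In KO against WT, 16 of the 40 genes had a higher and none a lower change, 40% and 0.0%, against 9.09% and 7.24% of all genes tested, and the median of the 40 was 0.66 on the log2 scale, against 0.03 over all genes. In DKO against WT, 25 had a higher and none a lower change, 62.5% and 0.0%, against 21.1% and 20.9% of all genes, with a median of 0.94 against -0.02. Both interactions use the same WT libraries. For KO against WT the terms were 1.84 for Brca2 (SE 0.30, edgeR adjusted p = 0.0084), 1.50 for Fancd2 (SE 0.28, adjusted p = 0.012), 1.49 for Rad50 (SE 0.17, adjusted p = 0.003) and 1.43 for Rif1 (SE 0.31, adjusted p = 0.019). Brca2 was at 8.33 (day 8) and 5.07 (day 12) normalised RPKM in differentiated KO cells, against 9.28 and 7.78 in KO ES cells, a change of -0.39 beside -2.23 in WT. For DKO against WT the terms were 2.94 for Xrcc5 (SE 0.22, adjusted p = 0.00011), 2.29 for Chek2 (SE 0.25, adjusted p = 0.0004), 2.17 for Brca2 (SE 0.30, adjusted p = 0.0011) and 2.08 for Parp1 (SE 0.18, adjusted p = 0.00018). An interaction term holds the ES difference as well. Chek2 was at 11.1 and 8.50 in differentiated DKO cells, against 4.92 and 4.41 in differentiated WT cells. In DKO minus WT ES cells it had a log2 fold change of -1.23, beside -1.16 for Xrcc5, -1.39 for Brca2 and -0.74 for Parp1. The count for KO against WT was 3 without WT ES replicate 1, 2 without WT ES replicate 2, 7 without KO ES replicate 1 and 3 without KO ES replicate 2; there Fancd2 and Rif1 missed the threshold without either WT ES replicate or KO ES replicate 2 (adjusted p from 0.061 to 0.081), Rif1 also without the KO day 8 library (0.057), and Brca2 without KO ES replicate 2 (0.051). The count for DKO against WT was 16 without WT ES replicate 1.

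**Figure D4:**
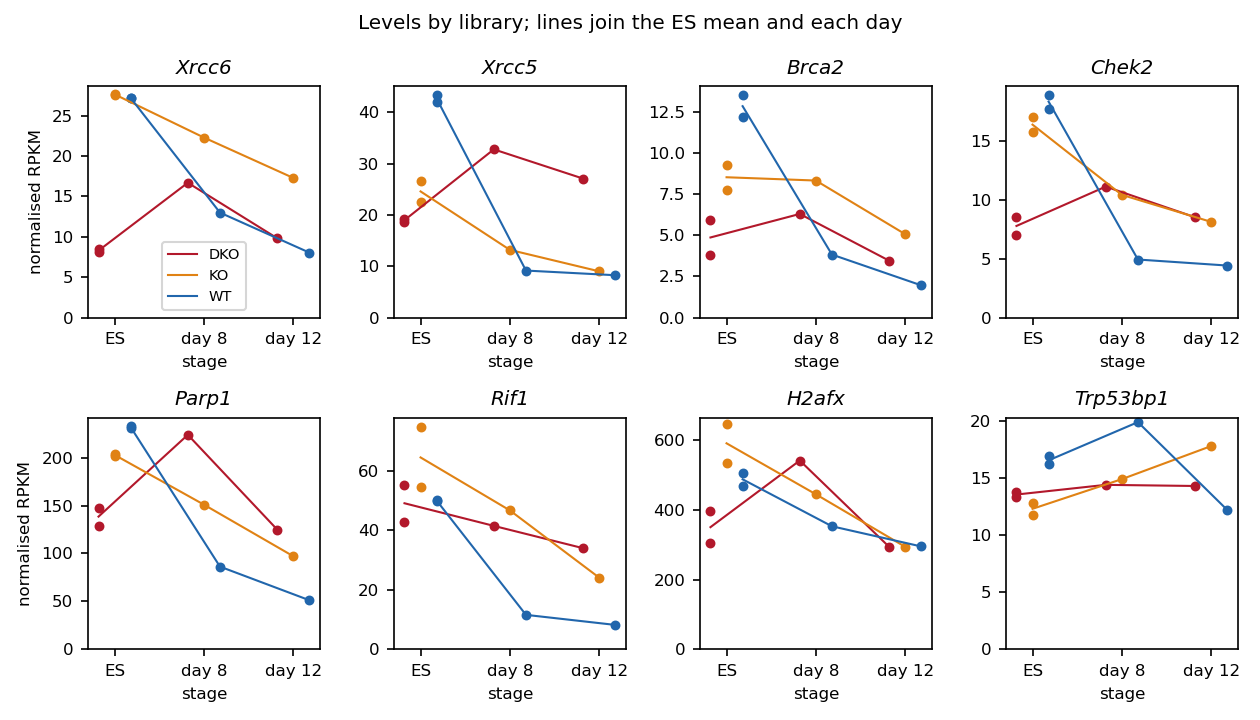
Normalised RPKM (vertical axes, starting at 0) of 8 genes by stage (ES, day 8, day 12) in DKO (red), KO (orange) and WT (blue); points are libraries and lines join the ES mean to the single library of each day. Xrcc6 ES libraries sit at 8.11 and 8.48 in DKO and at 27.2 in WT, and Rif1 ends at 33.9 in DKO, 24 in KO and 8.12 in WT at day 12.

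Markers of cell identity and of proliferation also changed on differentiation, to an extent that differed by genotype and by marker. Pou5f1 (Oct4) was at 1310 and 693 normalised RPKM at days 8 and 12 in DKO and at 782 and 308 in KO, against 85.8 and 42.4 in WT. Klf4 was at 121 and 105 in DKO and at 12.4 and 17.1 in KO, against 18.4 and 209 in WT, so its WT day 12 level was above all differentiated mutant libraries. DKO ES libraries had Pou5f1 at 1060 and 979, below the DKO day 8 level. Sox2 in DKO was at 849 and 721 in ES libraries and at 932 and 455 at days 8 and 12. Esrrb in DKO was at 572 and 585 in ES libraries and at 203 and 115 at days 8 and 12. On differentiation 3 of the 8 ES markers were lower in DKO, 8 in KO and 7 in WT, with none higher. These were 37.5%, 100% and 87.5%, against 9.22%, 13.5% and 29.8% of all genes. Between differentiated cells 5 of the 8 ES markers were higher in DKO than in WT, against 1.52% of all genes. In KO against WT 0 passed, where 0.0% of all genes did. The 8 ES markers summed to 1740 to 3360 in differentiated DKO, 1060 to 2230 in KO and 335 to 367 in WT libraries, and their interaction with genotype was higher in 7 of 8 for DKO and 7 of 8 for KO. The 8 fibroblast and mesenchyme markers summed to 224 and 101 at days 8 and 12 in DKO, 182 and 407 in KO and 1280 and 740 in WT. Fn1 gave most of the mutant day 8 sums, at 216 and 98.4 in DKO, 163 and 199 in KO and 471 and 204 in WT. Col1a1 was at 0.174 and 0.265 in DKO and at 7.3 and 55.1 in KO, against 289 and 202 in WT, and Postn at no more than 0.0242 in DKO. Thy1 differed in order by day, at 7.94 and 1.15 in DKO and 7.81 and 2.08 in KO, against 1.53 and 4.01 in WT. On differentiation 0 of the 8 were higher in DKO, 6 in KO and 6 in WT. The 12 markers of differentiated lineages summed to 140 and 416 at days 8 and 12 in DKO, 231 and 1070 in KO and 4770 and 693 in WT, so the KO sum was above the WT sum at day 12. In ES libraries they already summed to 134 and 120 in DKO, 282 and 318 in KO and 186 and 190 in WT. Tubb3 was at 73.0 and 57.8 in DKO, 208 and 254 in KO and 150 and 156 in WT ES libraries. At days 8 and 12 Tubb3 was at 68.8 and 51.1 in DKO, 59.3 and 28.8 in KO and 7.22 and 14.1 in WT. The embryonic globin Hba-x gave 3460 of the WT day 8 sum, and it and Hbb-y were at 0 in both differentiated DKO libraries. The endoderm markers did not follow the globins at day 12: Ttr was at 81.3 in DKO, 69.8 in KO and 51.8 in WT, Apoa1 at 157, 281 and 148, and Afp at 24.4, 45.0 and 39.3. On differentiation 3 of the 12 were higher in DKO, 5 in KO and 8 in WT. The 25 proliferation markers fell in 3 of 25 in DKO, 5 in KO and 21 in WT (12%, 20% and 84%), with none higher. Their interaction was higher in 13 for DKO and 9 for KO (52% and 36%) and lower in none. Of all genes, 9.22% (DKO), 13.5% (KO) and 29.8% (WT) fell on differentiation, and 10.4%, 15.8% and 31.2% rose. The interaction was higher in 21.1% (DKO) and 9.09% (KO) of all genes. Mki67 was at 60.4 at day 8 and 24.4 at day 12 in WT, against 37.4 and 36.6 in WT ES libraries. The part of these marker shifts in the fall of the break repair genes was not tested.

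**Figure D5:**
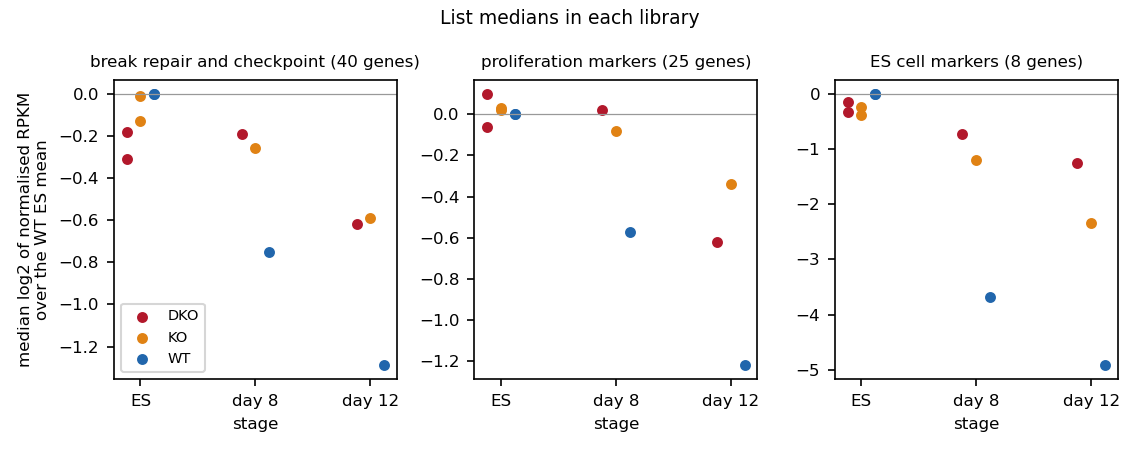
Median log2 of normalised RPKM relative to the WT ES mean (vertical axes, offset 0.1) in each library by stage, for the 40 break repair and checkpoint genes, 25 proliferation markers and 8 ES cell markers; DKO is red, KO orange and WT blue. At day 12 the 40 genes lie at -0.62 in DKO, -0.59 in KO and -1.29 in WT, and the proliferation markers at -0.62, -0.34 and -1.22.

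Among the differentiated cells alone, DKO cells were higher than WT cells in 2 of the 40 genes and lower in none, against 1.52% higher and 0.674% lower of all genes tested. Rif1 was at 41.4 (day 8) and 33.9 (day 12) normalised RPKM in DKO, against 11.5 and 8.12 in WT (log2 fold change 2.0, SE 0.25, edgeR adjusted p = 0.047), and Xrcc5 at 32.8 and 27.1 against 9.17 and 8.26 (log2 fold change 1.81, SE 0.23, adjusted p = 0.049). In both genes each DKO library was above both WT libraries. The median log2 fold change of the 40 genes was 0.56, against 0.02 over all genes. Both calls were lost without the WT day 8, KO day 8, KO day 12, DKO day 8 or DKO day 12 library (adjusted p from 0.058 to 0.3), while DESeq2 called 13 and edgeR on all 12 libraries 18, all higher, against 10.1% and 19.0% of all genes higher in those fits (14.2% and 18.8% lower). Between KO and WT differentiated cells 0 of the 40 genes and 0.0% of all genes passed edgeR's test. In that test 19 of the 40 and 3003 of the 12900 genes tested had an unadjusted p under 0.05. DESeq2 called 11 of the 40, and edgeR on all 12 libraries called 21, all higher. In those 2 fits 7.4% and 16.2% of all genes were higher, and 6.82% and 11.3% lower. The median of the 40 was 0.63, against -0.01 over all genes. The fit on differentiated libraries has 2 residual degrees of freedom.

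Between day 12 and day 8, again 0 of the 40 genes and 0.0% of all genes passed edgeR's test. An unadjusted p under 0.05 was reached by 13 of the 40 and 1582 of the 12900 genes tested. DESeq2 called 3 and edgeR on all 12 libraries 10, all lower. In those fits 1.57% and 5.0% of all genes were lower, and 2.89% and 4.44% higher. Over the 40 genes the median log2 fold change was -0.33, against -0.01 over all genes, and 36 of the 40 values were below 0. The lowest was that of Bard1 (-0.87, SE 0.21), at 10 normalised RPKM at day 12 against 24.5 at day 8 in DKO, 8.83 against 13.9 in KO and 5.43 against 8.64 in WT.

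Trp53bp1, the reader of methylated H4K20, stayed between 11.8 and 19.9 normalised RPKM in all 12 libraries. It was at 13.3 and 13.8 normalised RPKM in ES, 14.4 in day 8 and 14.3 in day 12 libraries of DKO, and at 12.8 and 11.8 in ES, 14.9 in day 8 and 17.8 in day 12 libraries of KO. In WT it was at 16.2 and 16.9 in ES, 19.9 in day 8 and 12.2 in day 12 libraries. It was lower than WT in KO ES cells, as given above, and in DKO ES cells (log2 fold change -0.28, SE 0.11, edgeR adjusted p = 0.042), the second call being lost in limma (0.06 to 0.061) and without either WT replicate or DKO replicate 1 (0.081 to 0.27). Its change on differentiation did not pass in DKO (0.09, SE 0.20), KO (0.42, SE 0.20) or WT (-0.06, SE 0.20), nor did its interaction terms (0.14, SE 0.29, for DKO and 0.48, SE 0.29, for KO). Without the WT day 8 library the WT change was -0.48 (adjusted p = 0.031) and the interaction terms were 0.57 for DKO (0.048) and 0.90 for KO (0.015), and without the WT day 8 or the WT day 12 library the KO change passed (0.022 and 0.023). Trp53bp1 overlaps Tubgcp4 and Mtap1a on the opposite strand.

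H2afx was the most abundant of the 40 genes in every library. It was at 397 and 304 normalised RPKM in ES, 542 in day 8 and 294 in day 12 libraries of DKO, and at 535 and 648 in ES, 445 in day 8 and 294 in day 12 libraries of KO. In WT it was at 470 and 506 in ES, 353 in day 8 and 295 in day 12 libraries, so the 3 genotypes were within 1 unit of each other at day 12. It was lower in DKO than in WT ES cells (log2 fold change -0.47, SE 0.14, edgeR adjusted p = 0.011; 0.08 without WT replicate 2 and 0.062 without DKO replicate 2), and did not pass in KO (0.28, SE 0.14, adjusted p = 0.13), although it did without either DKO replicate (0.015 to 0.016). It fell on differentiation in KO (-0.71, SE 0.19, adjusted p = 0.028) and WT (-0.59, SE 0.19, adjusted p = 0.029) and did not pass in DKO (0.19, SE 0.19). Both falls missed the threshold in limma (0.057 to 0.064); the fall in WT also without either WT ES replicate or the WT day 8 library (0.077 to 0.21), and the fall in KO without any single KO library or WT ES replicate (0.056 to 0.16). The interaction for DKO was 0.78 (SE 0.27, adjusted p = 0.05 after rounding), and the call was kept in 5 of 18 alternatives. It was lost with RLE size factors (0.058), in limma (0.05 to 0.051), with the transcript model with the most reads (0.055) and without any single library other than DKO ES replicate 1, the WT day 12 and the DKO day 12 library (0.058 to 0.18). Over all differentiated and ES libraries it did not pass (-0.34, SE 0.22), although it did without the DKO day 8 library (-0.54, adjusted p = 0.02).

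Other genes of these pathways, 80 in 4 lists, had a row for 78, and 74 or 75 of them were tested. In ES cells 18 were higher and 23 lower in DKO than in WT, 24.3% and 31.1%, against 32.2% and 31.6% of all genes. In KO 8 were higher and 9 lower than in WT, 10.8% and 12.2%, against 23.5% and 19.2% of all genes. Neither comparison had a larger share of these genes called than of all genes. In DKO ES cells the strongest calls included rises of Rnf169, a ubiquitin reader that competes with Trp53bp1 at breaks (log2 fold change 1.83, SE 0.13, edgeR adjusted p = 1.8e-07), and Mdm2, the ubiquitin ligase of p53 (1.51, SE 0.11, adjusted p = 3.4e-07), and falls of Shfm1 (Dss1), which binds Brca2 (-1.49, SE 0.22, adjusted p = 7.3e-05), and Eme1, the partner of the Mus81 nuclease (-1.21, SE 0.13, adjusted p = 8.5e-06). Gen1, a nuclease of recombination junctions, was higher (1.16, SE 0.15, adjusted p = 3.3e-05) and Lig3, the ligase of alternative end joining, lower (-0.78, SE 0.11, adjusted p = 6.5e-05). The part of chromosome shifts in the values of these genes was not tested. On differentiation 2 were higher and 13 lower in DKO, 0 higher and 10 lower in KO, and 3 higher and 45 lower in WT. The lower shares were 17.3% (DKO), 13.3% (KO) and 60% (WT), against 9.22%, 13.5% and 29.8% of all genes, so the KO share was near that of all genes. Among the WT falls were Rpa1 (-2.16, SE 0.13), which coats single-stranded DNA, Trp53 (-2.12, SE 0.19), which encodes p53, and Tipin (-2.04, SE 0.14) of the fork protection complex. The interaction was higher in 27 and lower in 1 for DKO, 36% and 1.33%, against 21.1% and 20.9% of all genes. For KO it was higher in 17 and lower in 0, 22.7% and 0.0%, against 9.09% and 7.24% of all genes. By list, the WT falls were 23 of 28 recombination genes, 15 of 28 signalling and checkpoint genes, 5 of 11 Fanconi anaemia genes and 2 of 8 end-joining genes, against 29.8% of all genes; the difference between lists was not tested.

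Because many of the 40 genes moved together on WT differentiation, the 250 bases before their annotated starts were searched for 3 promoter elements known from cell-cycle genes, on both strands. RefSeq promoter sequences (GRCm38.p6) were matched for 29 of the 40 genes, and Exo1, Fancd2, H2afx, Nbn, Prkdc, Rad50, Rbbp8, Rif1, Wee1, Wrn and Xrcc2 had no entry. An E2F-type octamer (TTTCCCGC, TTTCGCGC, TTTGGCGC or TTTGCCGC) was present in 6 of the 29, or 20.7%, against 2.16% of 27025 genes. The 27025 are all genes with a promoter entry, expressed here or not, whereas the 29 all passed the filter on RPKM. The shares of the 3 elements therefore compare unlike sets of genes. A gene with several annotated starts was counted once if any of them had a match. The CHR element TTTGAA was present in 2 of the 29 (6.9%, against 18.3%), and the CCAAT box in 14 of the 29 (48.3%, against 37.5%). A match describes the letters in this window and is not a binding site. All 6 genes with an E2F-type match were among the genes that fell on WT differentiation, as were 16 of the 23 without one. With a CCAAT box 12 of 14 genes fell, and without one 10 of 15. With a CHR element 1 of 2 fell, and without one 21 of 27. None of these differences was tested. Matches of this octamer on the 2 strands can overlap where it ends in GCGC; each of the 6 windows held 1 match. They are printed 5′ to 3′ on the strand of the gene, with the match in capitals, to show its surroundings in the genes whose WT values are given here.
Brca2 (chr5:150522413-150522500, plus strand): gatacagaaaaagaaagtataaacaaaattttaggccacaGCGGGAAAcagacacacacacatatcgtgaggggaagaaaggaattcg
Chek2 (chr5:110839791-110839878, plus strand): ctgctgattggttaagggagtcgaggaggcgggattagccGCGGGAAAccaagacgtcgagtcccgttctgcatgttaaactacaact
Xrcc6 (chr15:82016283-82016368, plus strand): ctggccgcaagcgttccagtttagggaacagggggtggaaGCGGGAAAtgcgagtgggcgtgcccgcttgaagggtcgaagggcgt
Bard1 (chr1:71103134-71103221, minus strand): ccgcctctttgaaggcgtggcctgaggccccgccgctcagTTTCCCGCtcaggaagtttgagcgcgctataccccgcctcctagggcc
Mdc1 (chr17:35841442-35841497, plus strand): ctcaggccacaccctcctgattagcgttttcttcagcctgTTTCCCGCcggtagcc
Topbp1 (chr9:103305158-103305245, plus strand): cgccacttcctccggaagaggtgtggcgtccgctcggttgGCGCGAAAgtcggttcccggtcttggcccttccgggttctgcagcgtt

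The matches began 168 bases before the start in Brca2, 152 in Chek2, 46 in Xrcc6, 209 in Bard1, 16 in Mdc1 and 129 in Topbp1. The octamer read GCGGGAAA in Brca2, Chek2 and Xrcc6, the reverse complement of the TTTCCCGC in Bard1 and Mdc1. On WT differentiation their log2 fold changes were -2.23 (Brca2), -1.97 (Chek2), -1.41 (Xrcc6), -1.57 (Bard1), -0.88 (Mdc1) and -0.67 (Topbp1). Xrcc5, at -2.29, had a CCAAT box and no E2F-type match in its window, and Parp1, at -1.80, had a match to none of the 3 elements.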

How the data were processed

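Polyadenylated RNA was sequenced in 12 libraries, and reads were aligned with Bowtie2 to mm9, per the submitters' processing notes; the counting program and its use of strand are not given in the sources used here. For each of 29257 transcript models the deposited tables hold the authors' whole-number read counts, an exon length in bases and an RPKM. The deposited RPKM divides by a library total larger than the reads in genes, so the normalised RPKM computed here from counts, length and TMM-scaled reads in genes are 1.67 to 1.97 times higher. The longest model stood for its gene.

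Counts were tested with edgeR 4.0.16 (quasi-likelihood, TMM; R 4.3.3), on genes with an RPKM of at least 1 in at least 2 libraries of the fit, with Benjamini-Hochberg adjustment over all genes tested and a threshold of 0.05. ES comparisons used the 6 ES libraries (3 residual degrees of freedom), the pooled comparison all 12 with genotype and state, tests within a genotype and interactions all 12 with a mean per genotype and state and day (5), and differentiated cells their 6 libraries with genotype and day (2). Standard errors were computed as the log2 fold change over the root of the F statistic. DESeq2 1.42.0, limma 3.58.1 on log2(RPKM + 0.5) or log2(RPKM + 1), other size factors, no filter, the model with the most reads, a replicate block, other sets of libraries and leaving out each library were alternatives. For limma the RPKM were the deposited ones, without TMM scaling. The tests were checked on simulated counts. ES replicate numbers do not pair the samples: the deviations of same-numbered libraries had correlations of -0.09 to -0.05 between genotypes.

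Members and gene lists were chosen with earlier results of these data known. Named members were Trp53bp1 and H2afx, and per comparison the changed members with the largest log2 fold changes, up to 8 in ES comparisons and in differentiated against ES cells and up to 4 elsewhere; from each list of other pathway genes up to 3 with the smallest adjusted p were eligible, and any further gene was picked with its values in view. Chromosomes, opposite-strand neighbours and promoters came from RefSeq (GRCm38.p6), with 22812 of 22878 symbols matched. Tables and plots were made with pandas 2.3.3, matplotlib 3.10.9 and numpy 2.4.6 under Python 3.11.15.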

Additional observations from a re-analysis of the deposited data

Results flagged for a closer look

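The changes on differentiation differed between genotypes by a test of the difference itself, edgeR's quasi-likelihood test of the interaction. For DKO against WT this held for 25 of the 40 genes (62.5%), against 21.1% higher and 20.9% lower of all genes. For KO against WT it held for 16 (40%), against 9.09% higher and 7.24% lower of all genes. The mutant change was higher than the WT change in each of these members. The named genes for DKO against WT were Xrcc5 (interaction 2.94 on the log2 scale), Chek2 (2.29), Brca2 (2.17), Parp1 (2.08) and H2afx (0.78, adjusted p = 0.05 after rounding, a call kept in 5 of 18 alternatives). Those for KO against WT were Brca2 (1.84), Fancd2 (1.50), Rad50 (1.49) and Rif1 (1.43). Each term holds the ES difference as well. In DKO minus WT ES cells that log2 fold change was -1.16 for Xrcc5, -1.23 for Chek2, -1.39 for Brca2, -0.74 for Parp1 and -0.47 for H2afx. In KO minus WT ES cells it was -0.58 for Brca2, 0.2 for Fancd2, -0.59 for Rad50 and 0.38 for Rif1. The ES cell and proliferation markers had interactions of the same direction in both mutants, 7 of 8 ES markers each and 13 (DKO) and 9 (KO) of 25 proliferation markers, and the part of these in the values of the break repair genes was not tested.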

How the results depend on the processing

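The number of changed genes among the 40 stayed within 1.5 times under all alternatives run for DKO minus WT ES, DKO minus KO ES and WT differentiation. Counts in 1 direction moved further on leaving out single libraries: 2 to 5 higher for DKO minus WT ES, and 2 to 5 higher and 10 to 19 lower for DKO minus KO ES. Elsewhere the total moved as follows. KO minus WT ES gave 13 with only those 2 groups in the fit, 5 higher and 8 lower, against 28.6% and 25.3% of all genes. It gave 5 to 13 on leaving out single libraries. Differentiated minus ES gave 21 in DESeq2, all lower, against 21.5% of all genes lower and 25.2% higher. It gave 7 to 21 on leaving out single libraries. Differentiation in KO gave 6 in limma with either pseudocount, against 16.7% to 18.1% of all genes higher and 9.45% to 9.5% lower. It gave 2 to 18 on leaving out libraries. Differentiation in DKO gave 11 in DESeq2, against 14.6% of all genes higher and 13.7% lower. Without a filter it gave 4, against 6.87% and 5.59%. In limma with either pseudocount it gave 4, against 10.6% to 11.2% and 6.94% to 6.99%. It gave 0 to 11 on leaving out libraries. The interactions gave 2 to 20 (KO) and 16 to 25 (DKO) on leaving out libraries. KO minus WT differentiated cells gave 11 in DESeq2 and 21 with all 12 libraries, DKO minus WT differentiated cells 13 and 18 (0 to 3 on leaving out libraries), and day 12 minus day 8 gave 3 and 10. Fits on other sets of libraries differ in residual degrees of freedom. The limma fits used the deposited RPKM without TMM scaling. The cause of these moves was not tested. The share of all genes called on leaving out single libraries is not given, so those counts are not set against all genes.

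Of the values of named genes under alternatives, 1075 kept their direction and side of the threshold, 117 lost the call, 9 gained one and 15 changed sign, all of Trp53bp1 or H2afx without a call. Trp53bp1 in WT differentiation was 0.04 in limma with either pseudocount. On leaving out libraries Trp53bp1 ran from -0.48 to 0.34 in WT differentiation, -0.01 to 0.19 in DKO differentiation, -0.25 to 0.57 in the DKO interaction, -0.32 to 0.48 for KO and -0.49 to 0.31 for DKO against WT differentiated cells, and -0.34 to 0.12 between days. H2afx ran from -0.04 to 0.42 in DKO differentiation, -0.36 to 0.12 in the KO interaction and -0.08 to 0.43 for KO against WT differentiated cells.

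With the replicate block, which pairs ES libraries by number only, the counts were 7 (KO minus WT), 18 (DKO minus WT) and 17 (DKO minus KO). Of all genes, 22.1%, 31.1% and 32.1% were higher and 17.6%, 30.6% and 33.1% lower in these comparisons with the block. Among named genes Wee1 in KO (adjusted p = 0.053) and Trp53bp1 in DKO (0.074) lost their call. The block was not run for differentiated libraries, which have 1 library per genotype and day. Depth limits the precision of Nhej1 (37 to 93 reads per library), Xrcc4 (82 to 145) and Rad52 (92 to 245) most.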

Other observations

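Several other genes of these pathways also differed between mutant and WT ES cells. Parp2, a poly(ADP-ribose) polymerase like Parp1, was at 16.6 and 15.7 normalised RPKM in DKO and 7.69 and 7.47 in KO ES libraries, against 17.3 and 17.6 in WT (log2 fold change for KO -1.19, SE 0.14, edgeR adjusted p = 3.4e-05). Dna2, a nuclease that works beside Exo1 in resection, was at 9.82 and 7.80 in KO libraries, against 19.6 and 19.9 in WT (log2 fold change -1.16, SE 0.14, adjusted p = 3.6e-05). Lig3 was at 32.0 and 30.8 in KO libraries, against 20.4 and 20.5 in WT (log2 fold change 0.63, SE 0.11, adjusted p = 0.00064), while its DKO libraries were at 11.4 and 12.4, below both. Fancb, a subunit of the Fanconi core complex, was likewise higher in KO (0.83, SE 0.16, adjusted p = 0.0015) and lower in DKO (-0.55, SE 0.17, adjusted p = 0.013) than in WT ES cells. Mdm2 was at 103 and 114 in DKO and 65.2 and 60.3 in KO, against 38.4 and 37.8 in WT ES libraries, so both mutants lay above WT. Pkmyt1, an inhibitory kinase of Cdk1 like Wee1, was at 34.7 and 34.7 in KO, against 18.5 and 17.1 in WT ES libraries (0.97, SE 0.16, adjusted p = 0.00041). Parp2 lies on chromosome 14, whose 433 tested genes had a median log2 fold change of -0.53 in KO relative to WT ES cells, and Lig3 on chromosome 11, with a median of 0.12 in KO and -0.40 in DKO. The part of these shifts in the values of both genes was not tested. Nor was the part of chromosome shifts in the other genes named here, and no median was computed for the sex chromosomes.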
